A study of Mus musculus with 14 samples.

Results

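Fn1 encodes fibronectin, and its row was chosen by symbol: 1 gene of the 43432 in the deposited table, described over all 14 libraries. It was singled out with its values in these libraries already known, so its levels and differences are given as a description with no test. RNA was sequenced from lung cells of male 129S1 mice, aged 10 to 12 weeks, that were sorted as SiglecF+ and CD11c+ and then divided by their surface MHC class II. The mice had received bleomycin, a DNA-damaging drug that injures the lung and is widely used to produce fibrosis in mice, instilled into the trachea (3 U/k in the labels), while controls received water. The 5 groups were MHCII-low cells from water controls (2 libraries, numbered 1 and 3 in the labels), and either population 2 or 4 weeks after bleomycin (3 libraries per group). The same 2 control libraries served the comparisons at 2 and at 4 weeks, and no week is assigned to them. No genetic change is named in the labels. MHCII-high cells from controls are not analysed here. The labels do not say how many mice gave a library or whether libraries of a group came from separate animals, so the p-values below measure only the spread between these libraries.

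Fibronectin is a large secreted glycoprotein that cells bind through integrins and pull into fibrils, on which collagen and other matrix proteins are then laid down. A soluble form made by the liver circulates in plasma, and a cellular form is made in tissues by fibroblasts, endothelium and macrophages. It is an early component of the provisional matrix after lung injury, and its RNA is spliced into forms that differ in extra domains and in a variable region.

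The gene (ENSMUSG00000026193) lies on the reverse strand of mouse chromosome 1, from 71585520 to 71653200 on the build mm10 (GRCm38), and is annotated as protein coding with 11685 bases of exon. Of 17 transcripts in GENCODE release M21, 7 have a full coding sequence. The coding sequences of the integrin-binding motifs are shown because the receptor genes described further on encode the proteins that read them. They are taken from transcript Fn1-201 on the reverse strand, written 5′ to 3′, with the 3 codons of each motif in capitals. The Arg-Gly-Asp motif is read by integrins such as the Itga5 and Itgb1 pair, and the Leu-Asp-Val motif of the variable region by integrins that contain Itga4. The Arg-Gly-Asp window is at chr1:71606716-71606784 and the Leu-Asp-Val window at chr1:71597653-71597721.
Arg-Gly-Asp coding window: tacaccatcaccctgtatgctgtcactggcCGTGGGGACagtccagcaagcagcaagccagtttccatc
Leu-Asp-Val coding window: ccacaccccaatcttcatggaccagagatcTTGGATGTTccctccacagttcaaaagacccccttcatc
The Arg-Gly-Asp codons shown begin at codon 1614 of Fn1-201 and are present in all 7 full coding transcripts, whereas the Leu-Asp-Val codons are in 3 of the 7. Arg-Gly-Asp occurs 2 times in the translation of Fn1-201, of which the window shows the first, and 1 time in Fn1-213 and Fn1-216. The extra-domain exon of 270 bases (71603660 to 71603929, extra domain A) is in 4 of the 7, and that of 273 bases (71613763 to 71614035, extra domain B) is in 1 of the 7. The deposited values are sums over the gene, so none of these forms could be measured separately and every Fn1 value below covers all of them.

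Fn1 was lowest in the controls, highest in MHCII-high cells at 2 weeks, and closer to control at the later time in MHCII-low cells. Values are normalized counts, which the authors scaled between libraries. In the control MHCII-low libraries Fn1 stood at 27740.5 and 32671 normalized counts, a mean of 30206 ± 3487 (SD, n = 2). In MHCII-low cells at 2 weeks the libraries held 196439, 201037 and 242793 normalized counts, a mean of 213423 ± 25539 (SD, n = 3). Every one of these libraries was at least 6.01 times any control library, and the ratio of means was 7.07. In MHCII-low cells at 4 weeks the values were 57653, 58146 and 70257 normalized counts, a mean of 62019 ± 7139 (SD, n = 3). These lay between the controls and the 2-week libraries with no overlap on either side, at 2.05 times the control mean.

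MHCII-high cells held more Fn1 than MHCII-low cells at both times. At 2 weeks the MHCII-high libraries stood at 290029, 320203 and 393129 normalized counts, a mean of 334454 ± 53007 (SD, n = 3). At 4 weeks they stood at 111804, 140178 and 213533 normalized counts, a mean of 155172 ± 52496 (SD, n = 3). The 4-week MHCII-high group was the most spread, with a coefficient of variation of 33.8% beside 11.5% to 15.8% in the other groups. The MHCII-high mean was 1.57 times the MHCII-low mean at 2 weeks and 2.50 times at 4 weeks, and the libraries did not overlap at either time. The order of the group means was thus control, 4-week MHCII-low, 4-week MHCII-high, 2-week MHCII-low and 2-week MHCII-high. Among neighbours in that order, only 4-week MHCII-high and 2-week MHCII-low overlapped: the highest 4-week MHCII-high library (213533) exceeded the lowest 2-week MHCII-low library (196439).

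**Figure D1:**
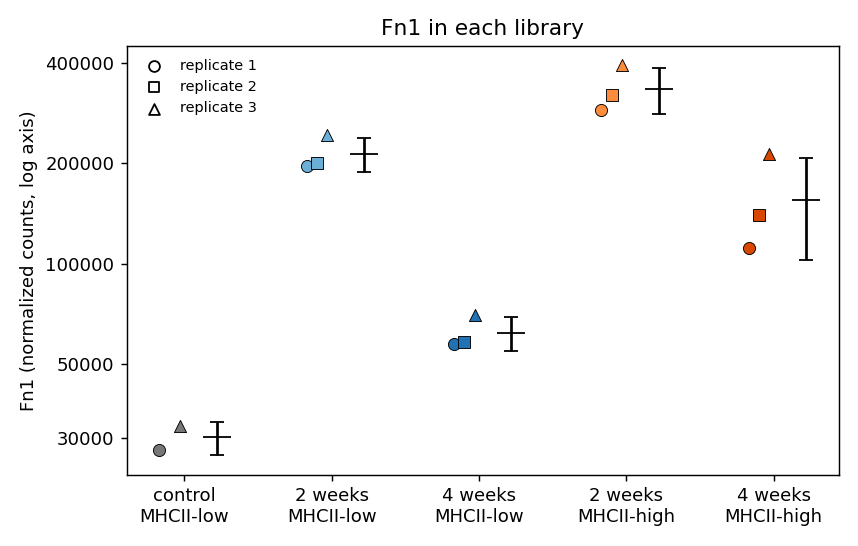
Fn1 in each of the 14 libraries, in normalized counts on a log axis, by group; symbols give the replicate number in the labels and the bars beside them the group mean ± SD. The 2 control libraries sit at 27740.5 and 32671 and the 2-week MHCII-high libraries at 290029 to 393129; the 4-week MHCII-high and 2-week MHCII-low libraries are the only neighbouring groups that overlap.

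On the log2(value + 1) scale, the fitted Fn1 difference from control was 2.82 (SE 0.23) in 2-week and 1.04 (SE 0.23) in 4-week MHCII-low cells. The difference of MHCII-high from MHCII-low cells was 0.64 (SE 0.21) at 2 weeks and 1.28 (SE 0.21) at 4 weeks. The gap between those 2 differences was 0.63 (SE 0.30). From 2 to 4 weeks the Fn1 difference was -1.78 (SE 0.21) in MHCII-low cells and -1.15 (SE 0.21) in MHCII-high cells. These comparisons share libraries: the 2-week and the 4-week MHCII-low groups each enter 3 of them, and the controls and each MHCII-high group enter 2. The share of reads taken by mitochondrial ribosomal RNA differed between the populations at 2 weeks, at 22.5% to 26.3% in MHCII-high and 3.42% to 18.3% in MHCII-low libraries. The controls, at 21.7% and 24.1%, were also above the 2-week MHCII-low libraries. With that share as a covariate, an alternative added after the data were seen, the 2-week difference between populations was 0.54 instead of 0.64. The difference of 2-week MHCII-low cells from control was then 2.91 instead of 2.82. In these bulk libraries, fewer cells that express Fn1 and less Fn1 RNA per cell cannot be told apart.

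By count, Fn1 was among the most abundant transcripts after bleomycin in every group except 4-week MHCII-low cells. It took 0.103% and 0.111% of the reads outside mitochondrial ribosomal RNA in the controls, and 0.945%, 1.07% and 1.23% in the 2-week MHCII-high libraries. By mean normalized count, with mitochondrial ribosomal RNA left out, it ranked 95 in the controls, 7 in MHCII-low cells at 2 weeks, 34 in MHCII-low cells at 4 weeks, 4 in MHCII-high cells at 2 weeks and 10 in MHCII-high cells at 4 weeks. Its long transcript contributes to those ranks. Values per kb divide by all annotated exon of a gene, 11685 bases for Fn1, whose full coding transcripts are 7410 to 8315 bases long. The Fn1 values per kb are thus lower than they would be per kb of 1 transcript, and the ranks per kb depend on this choice. Per kb of exon its mean level was 2585 in the controls and 28622 in 2-week MHCII-high cells, which placed it at rank 398 and rank 24. It ranked 46 per kb in 2-week MHCII-low, 181 in 4-week MHCII-low and 52 in 4-week MHCII-high cells. The lysozyme gene Lyz2 was first per kb in each of the 5 groups, at 486326 in the controls and 1098083 in 2-week MHCII-high cells; mt-Co1 and mt-Nd1, mitochondrial respiratory chain genes, and Ctsd, a lysosomal protease, were also among the first 5 per kb in each group, with mt-Cytb or, at 4 weeks in MHCII-low cells, the chitinase-like Chil3. Fn1 rested on 37950 to 563681 recovered reads per library, so that its Poisson counting error was at most 0.513% of the value.

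The tested genes nearest to Fn1 on the chromosome stood far below it. Atic, a purine synthesis enzyme and the nearest tested gene on its left, ranged from 2499.6 to 4748 normalized counts over the 14 libraries, with group means between 3200 and 3630. Bard1, a partner of Brca1 and the next gene on that side, ranged from 17.9 to 369 normalized counts. On the right, the noncoding genes Gm8883 and Gm28818 reached at most 44.7 and 25.1 normalized counts. The antisense gene Apol7d overlaps the 5′ end of Fn1 by 364 bases and held 0 to 18 normalized counts; without a statement that counting used strand, reads in that overlap cannot be assigned to either gene.

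The sorted cells carried the markers they were sorted by. Siglecf averaged 3520 to 8304 and Itgax, which encodes CD11c, 29370 to 40450 normalized counts between groups. The summed level of 10 MHC class II genes was 7771 to 25530 in MHCII-low and 107700 to 238900 in MHCII-high libraries. Total depth was 15106415 to 88059630 reads per library. The labels name a pair of sorter models without tying samples to them, and a sorter effect was not tested.

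Fibroblasts are a major source of fibronectin, so their markers were set beside Fn1. The summed level of 12 fibroblast markers was 897 to 1215 normalized counts in the controls, 1909 to 2342 in 2-week MHCII-low, 1230 to 1293 in 4-week MHCII-low, 1323 to 2343 in 2-week MHCII-high and 1127 to 1680 in 4-week MHCII-high libraries. Most of it was Gsn, an actin-severing gene that many cells express, at 562 to 1458. The type I collagen genes Col1a1 and Col1a2 reached at most 172.9 and 345.8 normalized counts in a library, the matrix gene Mfap4 at most 219.8, the growth factor receptor Pdgfra at most 216.6 and Lum, a fibroblast proteoglycan, at most 29.1. The library with the highest Fn1 of all, 2-week MHCII-high replicate 3 (393129), had 2 of the 12 markers at 0, a summed level of 2341, Col1a1 at 172.9 and Col1a2 at 320.6. In the other 2-week MHCII-high libraries, Col1a1 was 21.1 where Fn1 was 290029 and 3.3 where Fn1 was 320203. The 4-week MHCII-high library with the highest Fn1 of its group (213533) had 7 of the 12 markers at 0 and Col1a1 at 1.2. Genes with 10 or more normalized counts in 2 or more libraries were tested with limma, and a gene is called where its adjusted p over all 17390 genes is under 0.05. Of the 11 fibroblast markers tested, Col1a1 alone was called in any of the 6 comparisons, as lower at 4 than at 2 weeks in MHCII-low cells, where 0.748% of all genes were called lower. The median log2 difference of these 11 markers was 0.85 at 2 weeks against control and -1.07 at 4 weeks, -0.50 and -0.51 between populations at 2 and 4 weeks, and -1.56 and -2.23 from 2 to 4 weeks in MHCII-low and MHCII-high cells. Over all genes tested these medians lay between -0.09 and 0.08. The part of fibroblasts in the Fn1 values was not tested. The summed level of 4 mesothelial markers was 8.6 to 16.4 normalized counts in the controls. It was 4.8 to 96.2 in 2-week and 4.3 to 156 in 4-week MHCII-low libraries. In MHCII-high libraries it was 43.4 to 435.8 at 2 weeks and 0 to 9.4 at 4 weeks. The part of mesothelial cells in the Fn1 values was not tested. Endothelial cells also make fibronectin, and the summed level of 8 of their markers was 1857 to 2520 in the controls, 3021 to 4870 in 2-week MHCII-low, 1770 to 2844 in 4-week MHCII-low, 3995 to 6885 in 2-week MHCII-high and 3401 to 4390 in 4-week MHCII-high libraries. Most of that sum was Vwf, at 1474 to 4731. The median log2 difference of the 8 was -0.22 and -0.18 against control at 2 and 4 weeks, and 0.65 and 0.44 between populations. From 2 to 4 weeks it was -0.68 in MHCII-low and -0.54 in MHCII-high cells. Of these 8, Vwf alone was called, as higher in MHCII-low cells at 2 weeks than in controls (1.48% of all genes) and lower at 4 than at 2 weeks (0.748%). The first call was lost in 3 of 5 fits that each left out 1 library (limma, adjusted p up to 0.288) and the second in 4 of 6 (up to 0.284). The part of endothelial cells was not tested either.

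**Figure D2:**
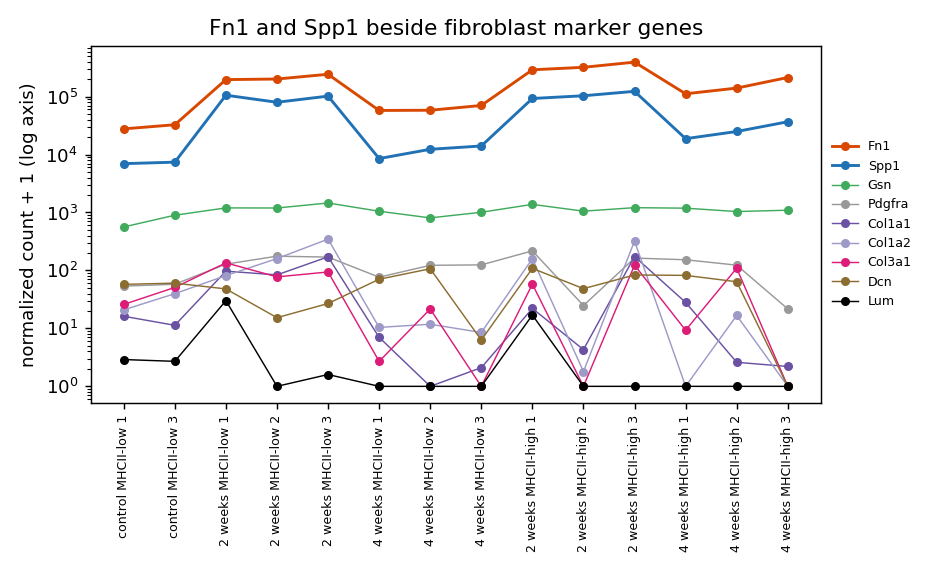
Normalized count + 1 of Fn1, Spp1 and 7 fibroblast marker genes in the 14 libraries, on a log axis; each line joins the values of a gene and has no meaning between libraries. Fn1 stays above 27740 in every library, while Col1a1, Col1a2 and Lum reach at most 172.9, 345.8 and 29.1.

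Markers of monocyte-derived or interstitial macrophages were also higher in several of these comparisons. Of 14 such genes, 8 were higher in MHCII-low cells at 2 weeks than in controls (1.48% of all genes). In MHCII-high against MHCII-low cells, 8 were higher at 2 weeks (2.29% of all genes) and 9 at 4 weeks (1.96%). Their summed level was 122100 to 135400 in the controls, 139900 to 183700 in 2-week MHCII-low, 124100 to 147200 in 4-week MHCII-low, 155900 to 175500 in 2-week MHCII-high and 138600 to 151400 in 4-week MHCII-high libraries. Most of that sum was Mrc1, at 84662 to 152537, which is also on the alveolar macrophage list, so the sum says little about the other genes. The median log2 difference of the 14 was 1.77 and 0.18 against control at 2 and 4 weeks. Between populations it was 2.57 and 3.41. Markers of resident alveolar macrophages went the other way between populations: 6 of 13 were lower in MHCII-high than in MHCII-low cells at 2 weeks (0.581% of all genes) and 4 at 4 weeks (0.535%). Markers of other cells also differed between populations: 4 of 9 dendritic cell, 3 of 10 epithelial and 1 of 10 B and T lymphocyte markers were higher in MHCII-high cells at 2 weeks, and 5, 2 and 3 at 4 weeks. Against control at 2 weeks, 2 of 6 neutrophil and 2 of 10 epithelial markers were called higher (1.48% of all genes). The median log2 differences of these lists were 1.31 and 0.04. The neutrophil list includes Mmp8, described below among the proteases. Scgb1a1, an airway epithelial marker, went the other way without a call, from 8983 and 18599 normalized counts in the controls to 7925, 3768 and 2228. The summed dendritic cell markers were 235.5 to 664 normalized counts in MHCII-low libraries of all groups and 2188 to 3571 in MHCII-high libraries. The part of these cells in the Fn1 values was not tested.

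The genes around fibronectin were followed in 5 lists (receptors, matrix partners, proteases and their inhibitors, growth factor inputs and splicing regulators) that together hold 121 genes, of which 110 passed the filter on low values. A gene that is high in 1 group alone passes that filter through that group. In MHCII-low cells at 2 weeks against control, 21 of the 110 were called, 20 higher and 1 lower, beside 1.91% of all genes, 1.48% higher and 0.426% lower. At 4 weeks against control none of the 110 was called by limma, beside 0.046% of all genes, 0.0345% higher and 0.0115% lower. There, 21 of the 110 and 1065 of all 17390 genes had an unadjusted p under 0.05, edgeR called 0 and DESeq2 called 2. In MHCII-high against MHCII-low cells at 2 weeks, 9 of the 110 were called, all higher, beside 2.87% of all genes, 2.29% higher and 0.581% lower. At 4 weeks 12 were called, all higher, beside 2.5% of all genes, 1.96% higher and 0.535% lower. From 2 to 4 weeks in MHCII-low cells 14 were called, all lower, beside 0.857% of all genes, 0.109% higher and 0.748% lower. In MHCII-high cells 9 were called, all lower, beside 1.07% of all genes, 0.311% higher and 0.759% lower. Whether the population difference changed between 2 and 4 weeks was tested for all genes, and limma called 0 of 17390 (smallest adjusted p = 0.12, with 987 at an unadjusted p under 0.05, 7 of them on the lists).

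Some of these counts rested on particular libraries. Against control at 2 weeks, the count was 9 without control replicate 1 and 13 without 2-week MHCII-low replicate 1, and 6 of the 21 genes kept their call whichever library was left out: Spp1, Ctsk, Mmp8, Mmp19, Mmp12 and Mmp2. From 2 to 4 weeks in MHCII-low cells, the count of 14 was 8, 9 and 8 without 2-week replicate 1, 2 and 3 and 8 without 4-week replicate 2. In MHCII-high cells, the count of 9 was 5 without 2-week replicate 1 and 5 without replicate 3. Between populations, 5 of the 9 genes at 2 weeks and 8 of the 12 at 4 weeks kept their call whichever library was left out.

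Among the 17 receptor genes, Itga5, the alpha chain of the classical fibronectin receptor, and the beta chain Itgb5 were called higher at 2 weeks against control (1.48% of all genes). Itgb1, the partner of Itga5, was called in none of the 6 comparisons. Itga5 stood at 2931 and 3967 normalized counts in the controls, at 6395, 5951 and 6263 in 2-week MHCII-low and at 3904.5, 2766 and 3727 in 4-week MHCII-low libraries. In MHCII-high cells it stood at 5559, 6536 and 5957 at 2 weeks and at 3351, 2642 and 2735 at 4 weeks. The 2-week libraries of both populations were thus above all libraries of the other groups, and the populations overlapped at 2 weeks. The Itga5 log2 difference was 0.86 (SE 0.19, adjusted p = 0.0171) for 2-week MHCII-low against control, and this call was lost without control replicate 1 (adjusted p = 0.366), 2-week replicate 1 (0.0618) or 2-week replicate 3 (0.0559). From 2 to 4 weeks it was -1.05 in MHCII-high cells (SE 0.17, adjusted p = 0.00472), a call kept whichever library was left out. In MHCII-low cells the same contrast gave -0.86 (SE 0.17, adjusted p = 0.012), lost without 2-week replicate 1 (0.058), 2-week replicate 3 (0.0561) or 4-week replicate 2 (0.112). Between populations Itga5 differed by -0.05 at 2 weeks (SE 0.17, adjusted p = 0.941), where Fn1 itself differed by 0.64.

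Itgb5, a chain that pairs with Itgav, averaged 1512 ± 241 (SD, n = 2) normalized counts in the controls and 3345 ± 320 (SD, n = 3) in 2-week MHCII-low cells, a log2 difference of 1.15 (SE 0.21, adjusted p = 0.00281) that was lost without control replicate 1 (adjusted p = 0.108). Itgb1 averaged between 16600 and 24780 normalized counts in the 5 groups, with adjusted p-values of 0.352 to 1. Itgav, the alpha chain of several other Arg-Gly-Asp integrins, averaged 3479 ± 914 in 2-week MHCII-low and 5240 ± 561 in 2-week MHCII-high cells (SD, n = 3, limma adjusted p = 0.104). Itgb3, which pairs with Itgav or Itga2b, was low: 0, 7.8 and 2.1 normalized counts in 4-week MHCII-low and 141.5, 241.6 and 68.2 in 4-week MHCII-high libraries. Its log2 difference there was 5.47 (SE 0.88, limma adjusted p = 0.000763). At 2 weeks Itgb3 stood at 60.4, 49.4 and 41.3 in MHCII-low and 264, 366.2 and 117.3 in MHCII-high libraries, apart but not called. It was called lower at 4 than at 2 weeks in MHCII-low cells (0.748% of all genes). That call was lost in most fits with a library left out (limma adjusted p up to 0.142). Itgb8, a chain that with Itgav binds latent TGF-beta, was 0 in both controls and in all but 1 (3.9) of the 4-week MHCII-low libraries, and 29.8 to 47.9 normalized counts in 4-week MHCII-high libraries (limma adjusted p = 0.0224), a call lost in 4 of 6 fits with a library left out (adjusted p up to 0.11). At 2 weeks Itgb8 stood at 2.2, 0 and 2.2 in MHCII-low and 32.4, 15.6 and 45.2 in MHCII-high libraries, apart but not called. Itga4, the chain that reads the Leu-Asp-Val motif shown above, was higher in MHCII-high than MHCII-low cells at 2 weeks, at 20340 ± 1290 against 12020 ± 1990 normalized counts (SD, n = 3; adjusted p = 0.0206), a call lost in 5 of 6 such fits (adjusted p up to 0.0898).

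Per kb of exon, the receptor genes differed widely in level. Cd44, a hyaluronan receptor that also binds fibronectin, had the highest mean at 19200 to 27200 per kb, followed by Plaur, the urokinase receptor, and Itgb1 at 4070 to 6900. Itga4, Itga5, Itgb5 and Itgav lay between 266 and 1450 per kb. Itgb3, Itgb6, Itgb8, Itga8, Itga9, Itga2b and Sdc2 had group means of at most 42.2 per kb. The median log2 difference of the 17 receptors was 0.17 at 2 weeks against control, beside -0.09 over all genes tested, and 0.77 and 0.61 between populations at 2 and 4 weeks, beside 0.08 and -0.03. It was -0.27 and -0.41 from 2 to 4 weeks in MHCII-low and MHCII-high cells, beside 0.03 and -0.07.

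**Figure D3:**
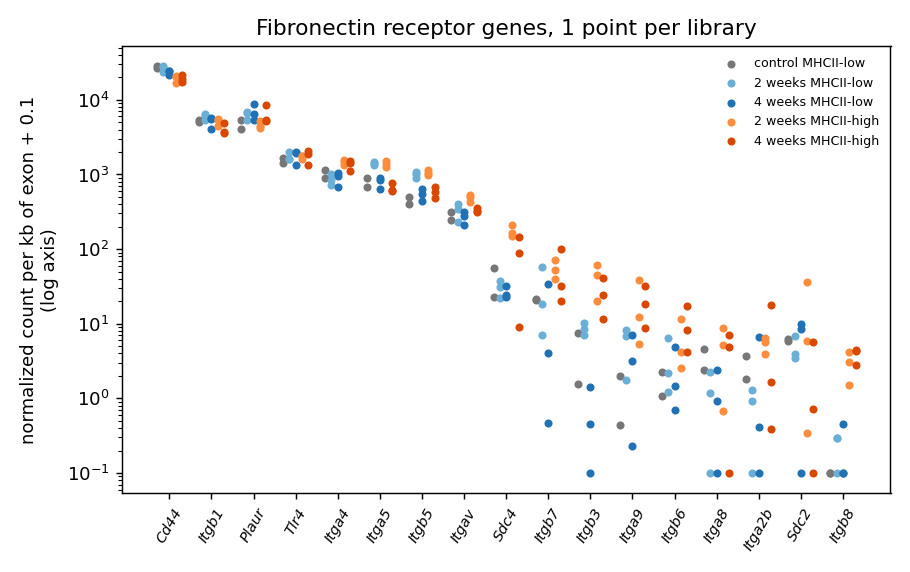
Normalized counts per kb of exon, plus 0.1, of the 17 receptor genes on a log axis, with 1 point per library coloured by group. Cd44 is highest at group means of 19200 to 27200 per kb, and Itga5 and Itgb5 are higher in both 2-week groups than in the other groups; points at 0.1 are libraries with a value of 0.

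Among the matrix partners, Spp1 was called in 4 of the 6 comparisons. It encodes osteopontin, a secreted Arg-Gly-Asp protein that binds several of the same integrins. Spp1 stood at 6964 and 7388 normalized counts in the controls, and at 105620, 79824 and 101920 in 2-week MHCII-low libraries. At 4 weeks the MHCII-low libraries held 8523, 12320 and 14053 normalized counts, above the controls without overlap, but the difference was not called (log2 0.67, SE 0.24, adjusted p = 0.681). MHCII-high libraries held 92775, 103351 and 123220 at 2 weeks and 18779, 24989 and 36775 at 4 weeks. The populations therefore overlapped at 2 weeks, where Fn1 did not, and were apart at 4 weeks. The Spp1 log2 difference was 3.73 for 2-week MHCII-low against control (SE 0.24, adjusted p = 6.38e-09), 0.15 between populations at 2 weeks (SE 0.22, adjusted p = 0.811) and 1.18 at 4 weeks (SE 0.22, adjusted p = 0.00255). From 2 to 4 weeks it was -3.06 in MHCII-low and -2.03 in MHCII-high cells (SE 0.22, adjusted p = 6.48e-08 and 0.000106).

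Of the 22 matrix partners tested, 4 were called higher at 2 weeks against control (1.48% of all genes): Spp1, Tgfbi, Tnc and Ecm1. Tgfbi, an adhesion protein induced by TGF-beta, averaged 8114 ± 1410 (SD, n = 2) normalized counts in the controls and 18430 ± 4520 (SD, n = 3) in 2-week MHCII-low cells (adjusted p = 0.00316, and 0.126 without control replicate 3). Ecm1, a secreted matrix glycoprotein, averaged 1633 ± 445 in MHCII-low and 6012 ± 1090 in MHCII-high cells at 2 weeks (SD, n = 3; log2 1.90, SE 0.26, adjusted p = 0.000162). At 4 weeks the values were 1372 ± 489 and 3790 ± 656 (SD, n = 3; adjusted p = 0.00161). Tnc, or tenascin-C, a matrix protein that binds fibronectin, was 0 in both controls, 98.4, 226.1 and 50.1 normalized counts in 2-week MHCII-low and 3.4, 0 and 1.1 in 4-week MHCII-low libraries. Its calls against control (adjusted p = 0.0131) and between the times (0.0374) were lost in 4 of 5 and in 6 of 6 fits with a library left out, with an adjusted p of up to 0.195. F13a1, the plasma transglutaminase subunit that crosslinks fibronectin to fibrin, averaged 21.3 ± 28.8 in MHCII-low and 709.1 ± 162 in MHCII-high cells at 4 weeks (SD, n = 3, limma adjusted p = 0.000564). At 2 weeks F13a1 stood at 152.1, 143.3 and 156.9 in MHCII-low and 1479.3, 1567.9 and 967.8 in MHCII-high libraries, apart but not called. It is also on the list of monocyte-derived macrophage markers. Within the MHCII-low population, Col1a1 averaged 116.6 ± 47.4 at 2 weeks and 2.37 ± 3.19 at 4 weeks (SD, n = 3; adjusted p = 0.0423), a call lost with any of the 6 libraries left out (adjusted p up to 0.219). The list's median log2 difference was 1.81 at 2 weeks against control beside -0.09 over all genes tested, a median that includes many low genes such as the collagens, and -1.59 and -1.77 from 2 to 4 weeks in the 2 populations.

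Proteases that cut fibronectin or turn over matrix, with their inhibitors, were the list with the most calls at 2 weeks. Of 23 tested, 11 were higher than in controls (1.48% of all genes) and none was lower. The median log2 difference over the 23 was 0.91, beside -0.09 over all genes tested. Ctsk, the collagen-degrading cathepsin K, averaged 5135 ± 806 (SD, n = 2) normalized counts in the controls and 20300 ± 3900 (SD, n = 3) at 2 weeks, a log2 difference of 1.97 (SE 0.19, adjusted p = 9.59e-07). Mmp19, a metalloproteinase with basement membrane and fibronectin substrates, went from 13640 ± 4890 (SD, n = 2) to 65440 ± 10100 (SD, n = 3; limma adjusted p = 1.91e-06). Mmp8, a collagenase that is also on the list of neutrophil markers, went from 1149 ± 333 to 5316 ± 435 (limma adjusted p = 1.91e-06). Mmp2, a gelatinase, was lower in level, at 44.35 ± 6.72 (SD, n = 2) and 368.2 ± 39 (SD, n = 3; adjusted p = 0.000755). The remaining 5 calls beside Mmp12 and Mmp14 were 4 further cathepsins (Ctsb, Ctsd, Ctsl and Ctss) and the inhibitor Timp2, with log2 differences of 0.81 to 1.38; each was lost in at least 1 fit with a library left out.

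Mmp12 and Mmp14 differed between populations as well as from the controls, where the 2-week log2 difference was 3.18 for Mmp12 (adjusted p = 2.28e-06) and 2.71 for Mmp14 (adjusted p = 0.00137, and 0.0604 without control replicate 1). Mmp12, or macrophage elastase, stood at 994.1 and 576.8 normalized counts in the controls, at 9596, 5917 and 5680.1 in 2-week MHCII-low and at 31119, 29128.5 and 32295 in 2-week MHCII-high libraries. At 4 weeks it stood at 1277, 1892 and 3256 in MHCII-low and 11137, 12179.8 and 20314 in MHCII-high libraries. All MHCII-high libraries were above all MHCII-low libraries at each time, by a log2 difference of 2.17 at 2 weeks (SE 0.29, adjusted p = 9.59e-05) and 2.82 at 4 weeks (SE 0.29, adjusted p = 2.2e-06). Mmp14, a membrane-bound collagenase that also activates Mmp2, stood at 29.2 and 54.2 in the controls, at 201.4, 264.3 and 351.3 in 2-week MHCII-low and at 3229.7, 2737.7 and 3483.9 in 2-week MHCII-high libraries. The 4-week values were 24, 31.4 and 54.4 in MHCII-low and 335.1, 381.3 and 698.6 in MHCII-high libraries. The populations were again apart at each time, by a log2 difference of 3.56 at 2 weeks and 3.66 at 4 weeks (SE 0.40; adjusted p = 1.41e-05 and 5.78e-06). Adam8, a membrane protease of myeloid cells, was higher in MHCII-high cells by 2.59 at 2 weeks (SE 0.43, adjusted p = 0.00114) and by 2.00 at 4 weeks (SE 0.43, adjusted p = 0.0112, and 0.0559 without 4-week MHCII-high replicate 3 or 0.0694 without MHCII-low replicate 1). Plau, the urokinase that activates plasminogen, was higher by 1.85 at 2 weeks (SE 0.35, adjusted p = 0.00419).

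Between 2 and 4 weeks 7 of the 23 proteases and inhibitors were lower in MHCII-low cells (0.748% of all genes) and 5 in MHCII-high cells (0.759%). In MHCII-low cells the log2 difference was -1.39 for Ctsk (SE 0.17, adjusted p = 5.5e-05), -1.60 for Mmp19 (SE 0.20, adjusted p = 0.00011), -1.45 for Mmp8 (SE 0.20, adjusted p = 0.000248) and -2.91 for Mmp14 (SE 0.40, adjusted p = 0.000295). In MHCII-high cells it was -2.81 for Mmp14 (SE 0.40, adjusted p = 0.00179), -1.26 for Mmp19 (SE 0.20, adjusted p = 0.00472) and -0.98 for Ctsk (SE 0.17, adjusted p = 0.0063). Mmp14, Mmp19 and Ctsk kept their calls in both populations whichever library was left out. The Fn1 differences were -1.78 and -1.15 over the same interval. The MHCII-low comparison shares its 2-week libraries with the comparison against control.

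**Figure D4:**
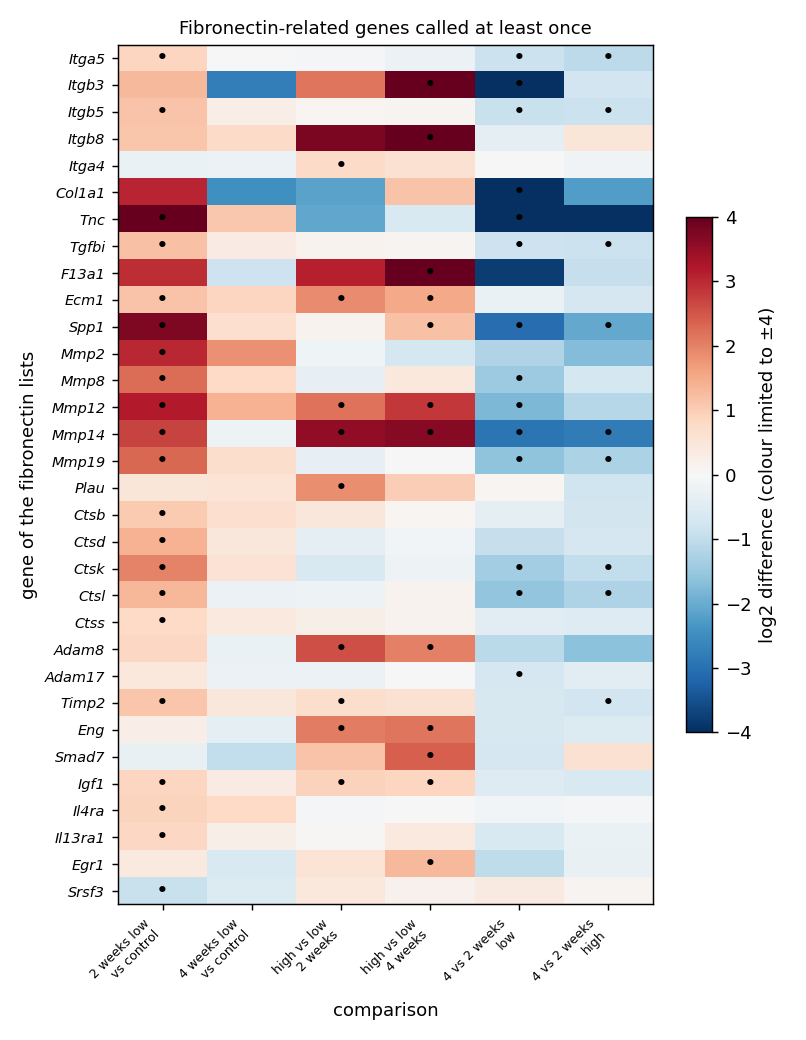
Log2 differences, as colours limited to ±4, of the genes on the 5 lists that were called at least once, in the 6 comparisons; dots mark the calls. The column for 4-week MHCII-low against control holds no dot, the columns between populations are red where marked and the columns from 2 to 4 weeks are blue where marked; colours of genes near 0, such as Tnc, Itgb8 and Col1a1, depend on the 1 added before the logarithm.

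Of 40 growth factors, receptors and transcription factors that can feed fibronectin production, 3 were higher at 2 weeks against control (1.48% of all genes). These were Il4ra, Il13ra1 and Igf1, at log2 differences of 0.83 to 0.89, and each was lost in at least 3 of 5 fits with a library left out. Tgfb1, the best known inducer of fibronectin, averaged between 7325 and 9949 normalized counts in the 5 groups and was called in no comparison (adjusted p = 0.343 to 1). Between populations Igf1, insulin-like growth factor, and Eng, a TGF-beta co-receptor, were higher in MHCII-high cells at both times: Igf1 averaged 5546 ± 183 and 10680 ± 1860 normalized counts at 2 weeks (SD, n = 3; adjusted p = 0.00916), and Eng 136 ± 42 and 555.4 ± 98.8 (SD, n = 3; adjusted p = 0.0224). At 4 weeks the log2 difference was 0.85 for Igf1 (adjusted p = 0.0183) and 2.14 for Eng (adjusted p = 0.0178). The Igf1 call at 2 weeks was lost without MHCII-high replicate 3 (adjusted p = 0.0539), and the other 3 were lost in 3 or 4 of 6 fits (adjusted p up to 0.12). Smad7, an inhibitor of TGF-beta signalling, and Egr1, an immediate early transcription factor, were higher in MHCII-high cells at 4 weeks by 2.40 (SE 0.44, adjusted p = 0.00245) and 1.30 (SE 0.26, adjusted p = 0.00586). From 2 to 4 weeks none of the 40 was called in either population. Among 8 splicing regulators, the serine and arginine rich factor Srsf3 alone was called, and only against control at 2 weeks, at 3948 ± 111 (SD, n = 2) and 2129 ± 28.4 (SD, n = 3) normalized counts (log2 -0.89, SE 0.18, adjusted p = 0.00807, and 0.139 and 0.0913 without control replicate 3 and 1).

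Pearson's r with Fn1 over the 14 libraries, on log2(value + 1), described which genes had the most similar pattern. Among 9993 genes with a mean of at least 100 normalized counts the median r was -0.002, and 71 genes exceeded 0.9. The 14 points share their libraries and fall into 5 groups, so r mainly reflects the group means. Slc6a8, a creatine transporter, was highest at r = 0.984, and it put the 14 libraries in the same order as Fn1 (Spearman's rho 1.0). Slc6a8 stood at 204 and 211 normalized counts in the controls and at 2394, 2635 and 2887 in 2-week MHCII-high libraries. Next were Sash1, a scaffold protein (0.971), Socs3, an inhibitor of cytokine signalling (0.966), Slc2a1, a glucose transporter (0.965), and Foxp1, a forkhead transcription factor (0.964). With any library left out these 5 kept r between 0.954 and 0.989. On the 5 lists, 6 genes had r above 0.9: Timp2 at 0.953, Spp1 at 0.952 (rank 13 of the 9993), Mmp12 at 0.924, Ctss at 0.907, Igf1 at 0.904 and Mmp14 at 0.902. The receptor chain Itga5 had 0.624, Itgb1 0.039 and Tgfb1 -0.058.

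The genes least like Fn1 were Mylip, a ubiquitin ligase for lipoprotein receptors (r = -0.952), Tlr5, the flagellin receptor (-0.933), and Cd36, a scavenger receptor (-0.931). Cd36 averaged 14250 ± 3270 (SD, n = 2) normalized counts in the controls and 4416 ± 1320 (SD, n = 3) in 2-week MHCII-high libraries. After group means were subtracted, which leaves only the variation among libraries of a group, the most similar genes were Ms4a8a, a membrane-spanning protein (r = 0.939), Trp53inp2, an autophagy regulator (0.936), and Dnaaf2, a dynein assembly factor (0.924). These genes followed Fn1 within groups but not all of them across groups: before the subtraction r was -0.254 for Ms4a8a, 0.875 for Trp53inp2 and 0.052 for Dnaaf2. Spp1 kept r = 0.838 within groups and Slc6a8 0.83.

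**Figure D5:**
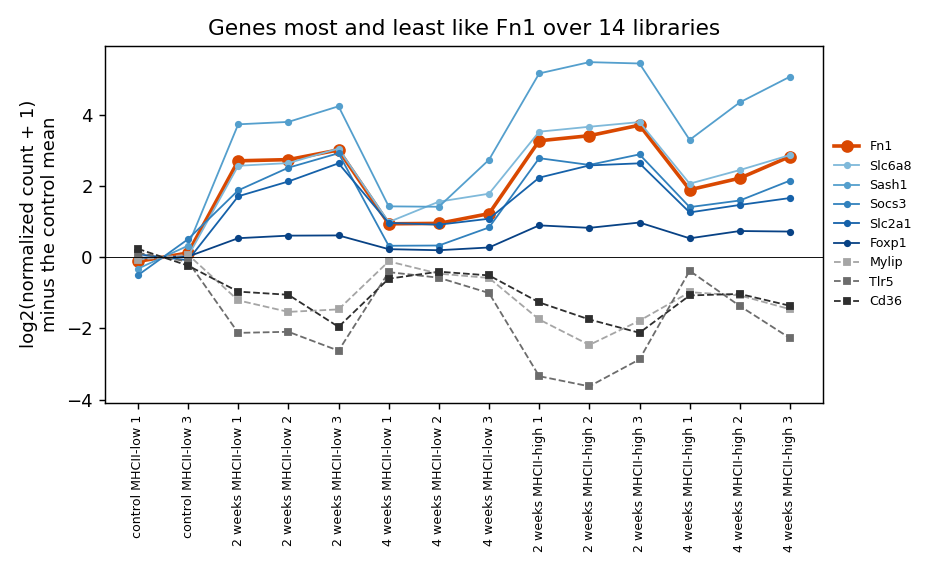
Log2(normalized count + 1) minus the control mean for Fn1 (thick line), the 5 genes with the highest r (blue) and the 3 with the lowest r (grey, dashed) in the 14 libraries; lines join the values of a gene. Slc6a8 (r = 0.984) lies nearly on Fn1, Sash1 (0.971) shows larger differences from control and Foxp1 (0.964) smaller ones.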

How the data were processed

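The members and gene lists were chosen with earlier results of these data known. STAR, DESeq2 and mm10 are named in the submitters' processing notes; their versions and the counting program are not given there. Per the file headers, the deposited values are normalized counts, a signal the authors scaled from gene counts. Each column held whole multiples of 1 step, so reads were recovered by division (steps of 0.39 to 2.24). All 14 libraries were fitted together with limma 3.58.1 (R 4.3.3): log2(value + 1), mean-variance trend, 1 coefficient per group, a minimum of 10 normalized counts in 2 or more libraries, Benjamini-Hochberg adjustment, threshold 0.05. Differences are on that log2 scale, which understates low genes. This replaced a count test because the files hold no raw counts; edgeR 4.0.16 and DESeq2 1.42.0 on recovered reads were alternatives, and the limma script was tested on simulated data. The deposited gene coordinates, GC percent and exon length were used as given by the authors, and no GC correction was made. Sequences come from GENCODE M21 transcripts on GRCm38.

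Named genes were Fn1; Itga5, Itgb1, Itgav, Itgb3, Spp1 and Tgfb1; up to 4 called genes with the smallest p per list and comparison; the genes most and least like Fn1; the 5 highest per kb; and the nearest 2 tested genes on each side. Others, such as Cd44 and the remaining cathepsins, were named after their values were seen.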

Additional observations from a re-analysis of the deposited data

How the results depend on the processing

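The Fn1 differences kept their direction and moved by less than the pooled spread within groups (SD 0.28 on log2) under all 12 or 13 alternatives run for each: added constants of 0.5 and 10, scaling by all reads, by reads outside mitochondrial ribosomal RNA and Fn1 or by TMM factors, the replicate block, the mitochondrial ribosomal RNA covariate and each library left out. With a library left out they ranged from 2.70 to 2.94 and from 0.92 to 1.16 for MHCII-low cells against control at 2 and 4 weeks, from 0.52 to 0.74 and from 1.02 to 1.49 between populations, and from -1.88 to -1.69 and from -1.41 to -0.94 from 2 to 4 weeks in MHCII-low and MHCII-high cells.

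Counts of called list genes moved more; the cause was not tested. With DESeq2 they were 2 (limma 0) at 4 weeks against control, 17 (9) and 19 (12) between populations at 2 and 4 weeks, and 19 (9) from 2 to 4 weeks in MHCII-high cells. With edgeR the fall in MHCII-low cells counted 9 (14). Without a filter on low values, with more genes tested, the falls counted 9 (14) and 5 (9). With the mitochondrial ribosomal RNA share as a covariate, the count between populations at 2 weeks was 5 (9), and that against control at 2 weeks was 14 (21). With a library left out the counts were 9 to 18 and 0 to 0 against control, 6 to 8 and 10 to 15 between populations, and 8 to 11 and 5 to 13 from 2 to 4 weeks. Over all genes, DESeq2 called 665, 73, 1052, 909, 317 and 638 where limma called 332, 8, 499, 434, 149 and 186, edgeR called 2 for the 8 and 112 for the 186, no filter gave 65 for the 8, 316 for the 499, 282 for the 434 and 103 for the 186, the block gave 16 for the 8, and the covariate gave 213 for the 332, 2 for the 8 and 207 for the 499.

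Same-numbered MHCII-high and MHCII-low libraries had deviations correlated at 0.107, 0.068 and 0.025 at 2 weeks and 0.009, 0.034 and 0.015 at 4 weeks. Libraries of unlike number correlated at -0.124 to 0.077 and at -0.032 to 0.017. Not every library correlated best with its own number, and the numbers were not taken as pairs in the main fit. These few values cannot decide whether the numbers mark pairs. A replicate block gave 22, 0, 13, 14, 15 and 12 called list genes. Of the 5 genes most like Fn1, 2 were among the first 5 by Spearman's rho and 2 to 5 with a library left out.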

Other observations

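The library numbered 3 held the highest Fn1 of its group in all 5 groups: 32671 normalized counts in the controls, 242793 and 70257 in MHCII-low cells and 393129 and 213533 in MHCII-high cells at 2 and 4 weeks. The ratio of same-numbered MHCII-high to MHCII-low libraries was 1.48, 1.59 and 1.62 at 2 weeks and 1.94, 2.41 and 3.04 at 4 weeks. The labels do not say what the numbers stand for, and the pattern was noticed after the values were seen.

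The 4-week MHCII-high libraries, the group in which Fn1 was most spread, also differed in other genes named above. From replicate 1 through 2 and 3, in which Fn1 was 111804, 140178 and 213533 normalized counts, Spp1 was 18779, 24989 and 36775 and Sash1, the scaffold gene, was 972, 2018 and 3326. Tlr5 had the opposite order, at 1342, 676 and 361.5. Ms4a8a was 2393, 2491.5 and 4177. Replicates of a group have no order. Sash1, Tlr5 and Ms4a8a were named for their likeness or unlikeness to Fn1 over these same libraries, so that they follow or oppose it here comes from how they were chosen.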
